A study of Bos taurus with 64 samples.

Results

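The transcripts of 1 Notch ligand and 3 transcriptional regulators of the HES and HEY families were followed in 2 muscles of 32 Normand cows. They are DLL4, HES1, HEYL and the probe set TC318591, which the array files describe as HES6 and which is called HES6 in the text. The 4 genes were chosen by their names in the array files among 5449 transcripts, and each of them was read by 1 of the 13285 probes, with 1 spot per array. RNA came from a back muscle, m. Longissimus thoracis (LT), and from a hind limb muscle, m. Semitendinosus (ST), with 1 single-colour Agilent array per muscle and cow (64 arrays). All were cull cows, slaughtered at a mean age of 4.5 years after a finishing period of 101 days on a lipid-rich diet of straw and concentrate with extruded linseeds and rapeseeds. In 16 cows, slaughter was preceded by stress (called moderated stress in the labels), that is, transport alone in a lorry and 30 min in a labyrinth on an unfamiliar farm. The other 16 cows were handled calmly, with limited stress, and were transported with a companion cow. In each of these groups, 8 cows had received the lipid-rich control diet and 8 cows the same diet with vitamin E and plant extracts rich in polyphenols (EP diet). The cows came from different farms, and stress combined isolation, transport to an unfamiliar farm, noise and walking, which cannot be told apart here.

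Notch is a receptor that a ligand on a neighbouring cell, such as DLL4, activates by contact. The cut receptor domain then enters the nucleus, binds RBPJ and switches on genes of the HES and HEY families, which encode repressors of transcription. In muscle, Notch signalling keeps satellite cells, the stem cells of the fibre, from differentiating, and DLL4 is best known from the endothelium of small vessels. HES1 and HEYL are direct Notch targets. HES6 is an atypical member that counteracts HES1 and is known to favour differentiation.

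The piece of each transcript that its probe reads is shown because all the levels below rest on that single piece. A stretch of 30 bases of each 60-base probe is given in the 5′ to 3′ order of the array file, and capitals mark AATAAA, the usual polyadenylation signal, searched on both strands (as AATAAA and as TTTATT).
DLL4: taagaatcagaagcactgacctttctacat
HES1: caaagatgtttgaaaatgctcttaaaatat
HEYL: attggtttccatggctgagggcacgtgtat
HES6: tgaacttccgggAATAAAactgatgcctga
The files place the probes on build HGSC Btau_3.1 at chr10:36385522-36385581 for DLL4, at chr1:74724850-74724909 for HES1, at chr3:113530791-113530850 for HEYL and at chr3:125197413-125197471 for HES6. The coordinates of HES1 and HES6 are written in descending order. AATAAA occurred in the HES6 probe and in 9.92% of the 13270 probes of 60 bases, and TTTATT occurred in the rest of the HES1 probe and in 3.55% of these probes. No other probe of the array shared 25 bases in a row with any of the 4 probes. Exons and untranslated regions were not analysed here, and the accession in the files matched the symbol in a RefSeq gene table for DLL4, HES1 and HEYL.

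Levels are scaled signals, the processed signal of the probe as a percent of the 75th percentile of the spots of the same array. Signals of different probes are not comparable, so each gene was compared with itself. The 75th percentile lay between 2470 and 4202 units, between 71.4% and 80.9% of the spots were well above background, and at most 1 spot per array was saturated. The spots of DLL4, HES1 and HEYL were well above background on all 64 arrays and that of HES6 on all but 1 array, of a limited stress cow in the ST. The number of arrays limits the precision. All 9 skeletal muscle fibre markers on the array were well above background on every array. A muscle sample holds fibres, vessels and other cells, so a change in the number of cells of a type and a change in the RNA of each cell cannot be told apart.

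In the LT, stress was associated with less DLL4 and with more HEYL and HES6. In the ST, HES6 was again higher, and the interval of the DLL4 difference included 0. The difference of HEYL there did not pass the test in the fit of the ST arrays alone. It passed in a joint fit of both muscles with the cow as a block. The part of the block itself in this change was not tested. HES1 did not pass the test for stress over both diets in either muscle. The authors, with another scaling and a model that held the slaughter period, list HES1 as differentially expressed in the LT and HEYL in both muscles. The comparison asks how muscle responded to stress before slaughter. In the LT, 3 of the 4 genes were differentially expressed (adjusted p under 0.1, limma), and 3.73% of the 4311 transcripts tested were. In the ST, 1 of 4 was, and 3.60% of the 4246 transcripts tested were. The 4 genes were chosen with earlier results of these data known, so these shares cannot rank them against other transcripts.

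**Figure D1:**
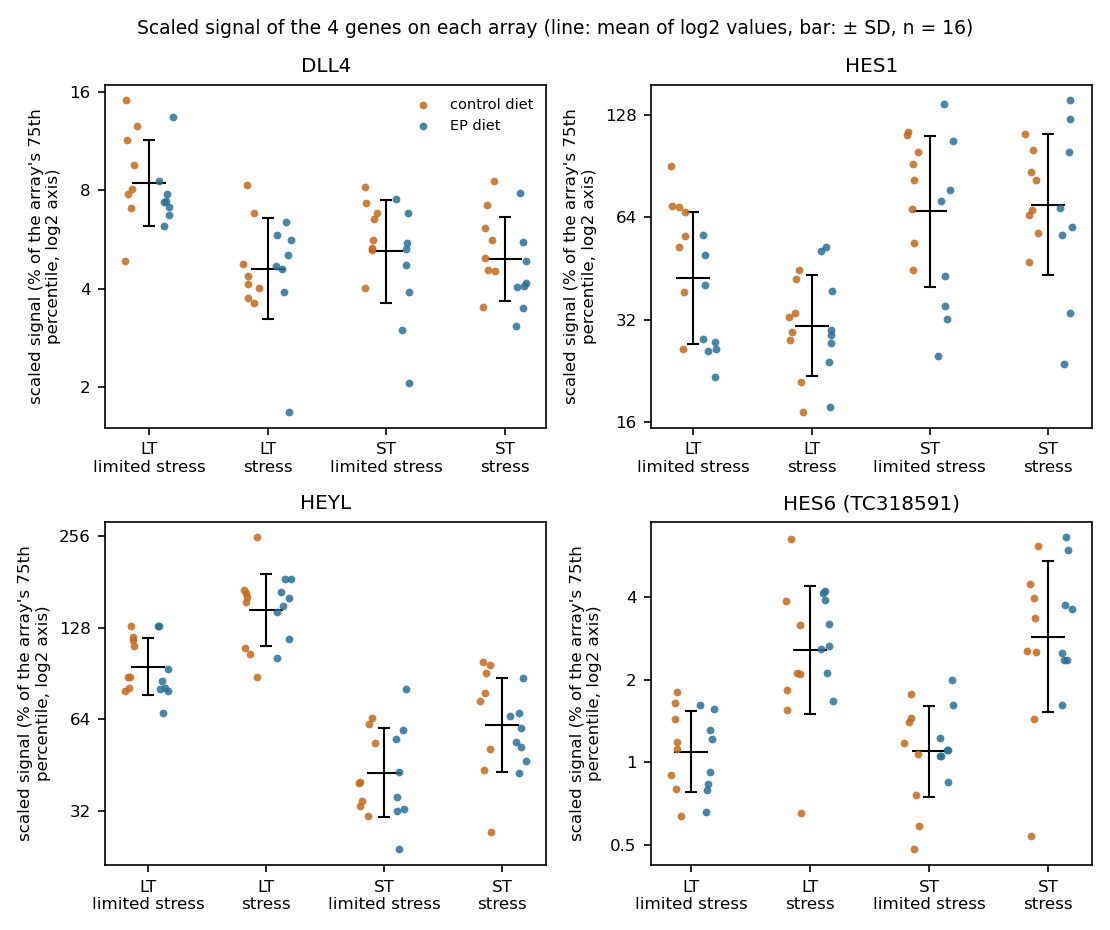
Scaled signal of DLL4, HES1, HEYL and HES6 on each of the 64 arrays (log2 axis), by muscle and stress group, with colour for the diet; lines are means of log2 values and bars ± SD (n = 16). DLL4 is lower in stressed than in limited stress cows in the LT, and HES6 is higher in both muscles.

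For the ligand DLL4 in the LT, the scaled signal of the limited stress cows ranged from 4.85% to 15.1% (median 7.81%, n = 16). That of the stressed cows ranged from 1.68% to 8.28% (median 4.64%, n = 16). The groups overlapped, but 10 stressed cows were below every limited stress cow, and 6 limited stress cows were above every stressed cow. The log2 fold change (stress / limited stress) was -0.87 (SE 0.166, 95% interval -1.21 to -0.53, limma, adjusted p = 0.00106). It was below 0 on each of the 4 LT slides, with values from -1.71 to -0.093. The slide at -1.71 held 2 stressed and 6 limited stress cows, among them the stressed cow with the lowest signal (1.68%). The slide nearest to 0 held the stressed cow with the highest DLL4 signal in both muscles, a cow of the control diet.

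In the ST, DLL4 ranged from 2.07% to 8.18% (median 5.41%) in limited stress cows and from 3.09% to 8.54% (median 4.70%) in stressed cows. Only 1 stressed cow lay above all the limited stress cows and none lay below all of them. The log2 fold change was -0.078 (95% interval -0.40 to 0.24, limma, adjusted p = 0.832). Other scalings put it just above 0, at 0.071 with unscaled signals and at 0.018 after division by the control features.

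The stress effects on DLL4 in the LT and the ST differed by -0.79 on the log2 scale (95% interval -1.26 to -0.33). This difference did not pass the test in the fit without the cow (limma, adjusted p = 0.999, unadjusted p = 0.00113) and passed it with the cow as a block (adjusted p = 0.0336), where 0.142% of 4230 transcripts were called. With the cow and the slide it was -0.74 (adjusted p = 0.153), and with the cow and the control features -1.07 (adjusted p = 0.535). When each cow was left out in turn under the cow block, 31 of 32 fits stayed under the threshold, and without 1 limited stress cow of the control diet the adjusted p was 0.106 (the range of the difference was -0.84 to -0.70). For the other genes the stress effect in the LT minus that in the ST was -0.53 for HES1 (95% interval -1.14 to 0.080, unadjusted p = 0.0872), 0.098 for HEYL (-0.34 to 0.53) and -0.16 for HES6 (-0.86 to 0.54), and none passed the test (limma, adjusted p = 0.999 for each; 0% of all transcripts were called, with an unadjusted p under 0.05 for 278 of 10254 probes).

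HES1, a repressor that Notch induces, ranged in the LT from 21.6% to 90.6% (median 45.1%) in limited stress cows and from 17.1% to 52.3% (median 29.6%) in stressed cows. Of the limited stress cows, 7 were above every stressed cow, and 3 stressed cows were below every limited stress cow. The log2 fold change was -0.47 (SE 0.178, 95% interval -0.83 to -0.10), which did not pass the test (limma, adjusted p = 0.176, unadjusted p = 0.0134). Without 1 limited stress cow, the same as for DLL4, the adjusted p was 0.0945 (log2 fold change -0.54). In the ST, HES1 ranged from 25% to 138% (median 74.3%) in limited stress cows and from 23.6% to 142% (median 67.7%) in stressed cows. These ranges nearly coincided, and the log2 fold change was 0.065 (95% interval -0.43 to 0.56, adjusted p = 0.911).

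HEYL, another repressor induced by Notch, was higher in the LT of stressed cows. Its signal ranged from 67.0% to 130% (median 88.1%) in limited stress cows and from 88.0% to 253% (median 158%) in stressed cows, and 11 of the 16 stressed cows were above every limited stress cow. The log2 fold change was 0.62 (SE 0.126, 95% interval 0.36 to 0.88, limma, adjusted p = 0.00244). It lay between 0.38 and 0.82 on each of the 4 slides. After scaling by the control features it was 0.44 (adjusted p = 0.409).

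In the ST, HEYL ranged from 23.9% to 80.7% (median 39.6%) in limited stress cows and from 27.2% to 99.0% (median 62.7%) in stressed cows. Of the stressed cows, 15 exceeded the limited stress median and 4 exceeded every limited stress cow. The limma fit of the ST arrays alone gave an adjusted p of 0.114. The joint fit of both muscles with the cow as a block gave 0.0306 (3.48% of 4230 transcripts called). The log2 fold change was 0.52 (SE 0.175, 95% interval 0.16 to 0.88 in the ST fit). The value was above 0 on the 5 ST slides, from 0.14 to 0.94, but the stress groups were unevenly spread over the slides (6 limited stress and 2 stressed cows on 1 of them), and 2 of the 5 values rest on 1 cow in a group, 1 stressed cow on 1 slide and 1 limited stress cow on another.

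HES6 was higher in stressed cows in both muscles. In the LT it ranged from 0.635% to 1.81% (median 1.15%) in limited stress cows and from 0.652% to 6.53% (median 2.63%) in stressed cows. In the ST it ranged from 0.481% to 2.00% (median 1.11%) and from 0.536% to 6.62% (median 2.96%). In each muscle, 13 of the 16 stressed cows were above every limited stress cow. The log2 fold change was 1.23 (SE 0.223, 95% interval 0.78 to 1.69, limma, adjusted p = 5.16e-04) in the LT and 1.39 (SE 0.260, 95% interval 0.86 to 1.92, adjusted p = 0.00119) in the ST. Every slide had a value above 0, from 1.02 to 1.73 in the LT and from 0.92 to 2.39 in the ST, with the same 2 ST slides holding 1 cow in a group. After the normexp background correction with an offset the log2 fold change was 0.62 in the LT and 0.81 in the ST, both still past the threshold. The lowest stressed cow was the same animal in both muscles, fed the control diet. The stressed cow with the highest DLL4 also had the highest HEYL of its group in both muscles and the highest HES6 in the LT.

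**Figure D2:**
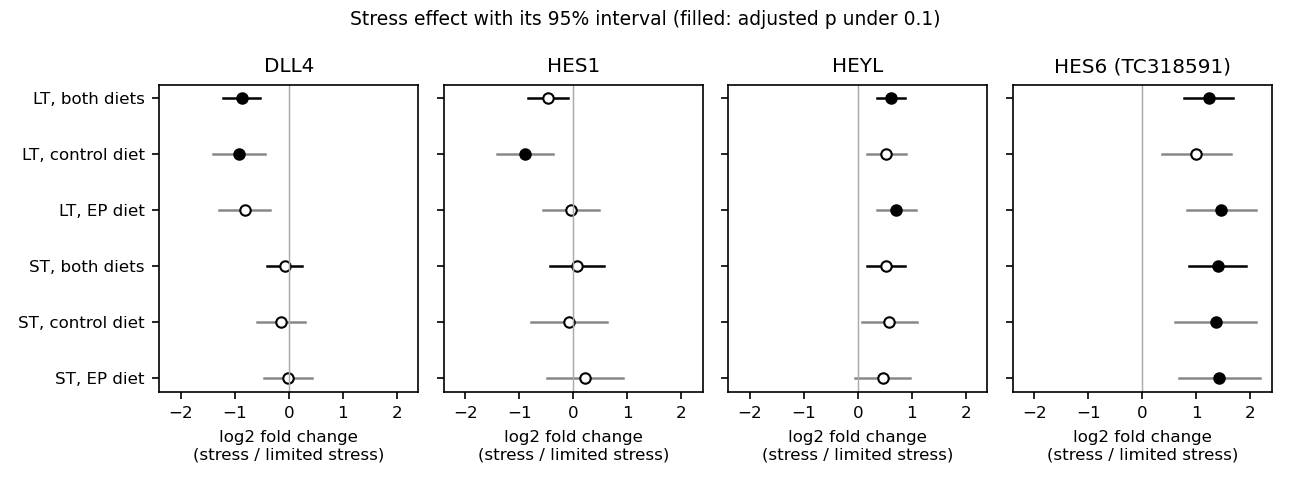
Log2 fold change (stress / limited stress) with its 95% interval for each gene, by muscle, over both diets and within each diet; filled points had an adjusted p under 0.1. The points of HES6 lie between 1.0 and 1.46 in all 6 comparisons, and that of HES1 in the LT lies at -0.89 for the control diet and at -0.040 for the EP diet.

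Within the diets (8 stressed and 8 limited stress cows each), the stress effect on HES6 in the LT was 1.46 with the EP diet and 1.0 with the control diet, and in the ST 1.42 and 1.36. That with the control diet in the LT did not pass the test (limma, adjusted p = 0.180; with a block, 0.0910 for the slide and 0.0743 for the scan day), whereas the others did (adjusted p = 0.00964, 0.0662 and 0.0648). HEYL passed it in the LT on the EP diet (0.71, adjusted p = 0.0384) and had a log2 fold change of 0.53 on the control diet (adjusted p = 0.234). DLL4 passed it in the LT on the control diet (-0.92, adjusted p = 0.0478). On the EP diet its log2 fold change was -0.82 (adjusted p = 0.103). That effect passed the test in the joint fit of both muscles with the cow as a block (adjusted p = 0.0521). It also passed with the slide (-0.89, adjusted p = 0.0738) and with the scan day (-0.83, adjusted p = 0.0901). Without a block, 2 of the 4 genes in the LT were called on the EP diet, where 1.16% of all transcripts were, and 2 of 4 on the control diet, where 1.09% were. In the ST, 1 of 4 was called on each diet, against 0.777% and 2.59% of all transcripts. The call of HES6 in the ST with the control diet was lost with the slide or the scan day as a block (1.04 and 1.1), and scaling by the control features took away that call and the 4 within-diet calls of the LT. None of these within-diet results shows a difference between the diets, which was tested as an interaction.

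For HES1 in the LT, the values are given within each group of stress and diet. Among limited stress cows, the median was 61.4% on the control diet (26.3% to 90.6%, n = 8) and 27.7% on the EP diet (21.6% to 56.9%, n = 8). Among stressed cows, the medians were 31.0% (17.1% to 44.9%) and 29.3% (17.7% to 52.3%). The limited stress cows on the control diet thus had the highest median of the 4 groups, and all the groups overlapped. The diet effect within a stress group is given for HES1 only and was not a planned comparison. The diet effect (EP / control diet) among the limited stress cows was -0.76 (95% interval -1.27 to -0.25) and did not pass the test (limma, adjusted p = 1.0). The stress effect was -0.89 on the control diet (limma, adjusted p = 0.0997) and -0.040 on the EP diet (95% interval -0.55 to 0.47). The first of these passed the threshold narrowly. It did not pass in the joint fit of both muscles with the cow as a block (adjusted p = 0.145). The stress effects on the diets differed by 0.85 (SE 0.356, 95% interval 0.13 to 1.58, unadjusted p = 0.0227), which did not pass the test over all probes (adjusted p = 1.0).

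The EP diet was not associated with a change that passed the test in any of the 4 genes. The log2 fold changes (EP / control diet) in the LT were -0.15 for DLL4, -0.33 for HES1, -0.046 for HEYL and 0.15 for HES6. In the ST they were -0.35, -0.35, -0.093 and 0.31 in the same order. Only the 95% interval of DLL4 in the ST left out 0 (-0.67 to -0.030; limma, adjusted p = 0.889). No transcript of the array was called for diet (0% of all transcripts tested in each muscle), while an unadjusted p under 0.05 was found for 407 of 10441 LT probes and for 531 of 10305 ST probes. None was called for the interaction of stress and diet (0%), with 276 and 491 such probes. With the slide or the scan day as a block, 2 transcripts were called for diet in the ST, and none of the 4 genes was.

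Between the muscles, HEYL and HES1 differed in opposite directions. HEYL was higher in the LT than in the ST of the same cow in 32 of 32 cows, with a difference of 0.45 to 1.84 on the log2 scale. The mean difference was 1.21 (SE 0.109, limma, adjusted p = 4.99e-14). The SE and p of the muscle differences are from the main fit, which did not pair the muscles of a cow. HES1 was lower in the LT in 30 of 32 cows, and the mean difference was -0.92 (SE 0.153, adjusted p = 1.05e-06).

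DLL4 was higher in the LT in 15 of 16 limited stress cows, by a mean of 0.70 (SE 0.164, limma without pairing by cow, adjusted p = 5.84e-04). Among the stressed cows it was higher in 6 of 16, and the mean difference was -0.10 (95% interval -0.43 to 0.23, adjusted p = 0.682). Over all cows the difference was 0.30 (adjusted p = 0.0267). HES6 had nearly the same signal in both muscles (difference -0.085, 95% interval -0.43 to 0.26, adjusted p = 0.706), and the sign depended on the scaling (0.10 with the control features and 0.042 without scaling). Hence 3 of the 4 genes were called between muscles, as were 51.7% of the 4230 transcripts tested in both. The same 3 were called among limited stress cows (38.4% of the transcripts) and HEYL and HES1 among stressed cows (36.2%). Every slide held arrays of 1 muscle, so slide and muscle cannot be told apart, and with the slide as a random block the difference of DLL4 had an adjusted p of 0.119.

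**Figure D3:**
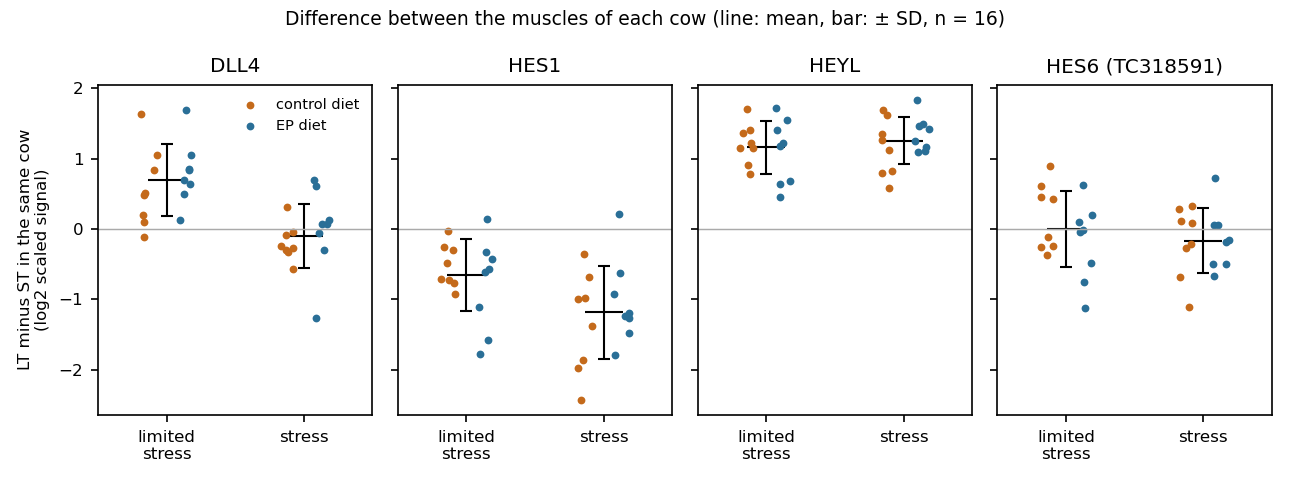
Difference in log2 scaled signal between the LT and the ST of each cow, by stress group and coloured by diet; lines are means and bars ± SD (n = 16). DLL4 is higher in the LT in 15 of 16 limited stress cows and in 6 of 16 stressed cows, and HEYL is higher in the LT in all cows.

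The levels of a gene in the LT and the ST of a cow were compared as deviations from the group means of stress and diet, with permutation tests (100000 permutations) and Benjamini-Hochberg adjustment over 16 relations. For HES6, Pearson's r was 0.76 and Spearman's rho 0.67 (permutation p = 3.00e-05 and 6.00e-05, adjusted p = 4.80e-04 and 7.20e-04). For HEYL they were 0.71 and 0.69 (permutation p = 7.00e-05 and 9.00e-05, adjusted p = 5.60e-04 and 7.20e-04). Cows with much HES6 or HEYL in one muscle thus tended to have much in the other. HES1 had r = 0.58 and rho = 0.57 (permutation p = 9.80e-04 and 0.00174, adjusted p = 0.00523 and 0.00928). DLL4 had r = 0.46 and rho = 0.52 (permutation p = 0.00821 and 0.00251, adjusted p = 0.0267 and 0.0100). Without the 2 cows farthest from the median, r was 0.60, 0.62, 0.55 and 0.53 for HES6, HEYL, HES1 and DLL4. After the slide means were removed, r was 0.73, 0.68, 0.61 and 0.34.

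**Figure D4:**
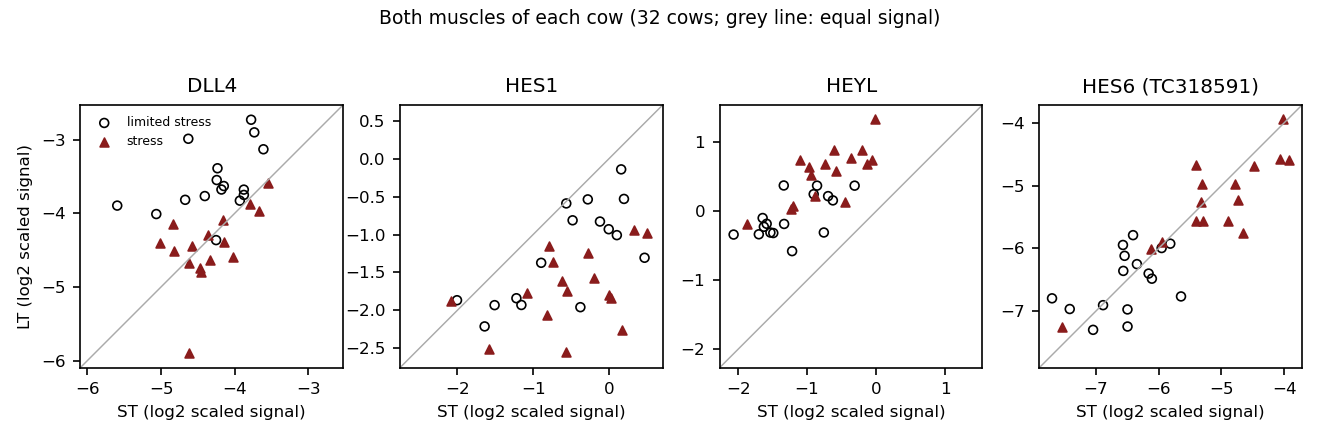
Log2 scaled signal in the ST (x) and the LT (y) of each of the 32 cows, with open circles for limited stress and triangles for stress; the grey line marks equal signals. The points of HEYL lie above the line and those of HES1 mostly below it, and those of HES6 lie along it.

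Between genes, 1 of 12 relations passed the test. HEYL and HES6 deviated together in the LT (r = 0.53, rho = 0.48, permutation p = 0.00833 and 0.0105, adjusted p = 0.0267 and 0.0337), with r = 0.43 without the 2 farthest cows and 0.53 after the slide means were removed. Within the limited stress cows r was 0.21 and within the stressed cows 0.70. In the ST, r was 0.17 (permutation p = 0.425, adjusted p = 0.566). Neither DLL4 with HES1 (r = -0.18 in the LT and 0.26 in the ST, permutation p = 0.355 and 0.226, adjusted p = 0.566 and 0.421) nor DLL4 with HEYL (0.34 and 0.24, permutation p = 0.0562 and 0.237, adjusted p = 0.150 and 0.421) passed it.

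Of 85 listed genes of the Notch pathway, 25 had a probe set on the array and 23 were tested, 19 of them besides the 4 genes. For stress, 0 of these 19 were called in the LT and 1 in the ST. Of all tested transcripts, 3.73% and 3.60% were called, so the counts do not set these genes apart. In the LT their median log2 fold change was -0.036 (-0.27 to 0.20), beside -0.054 over all transcripts, and in the ST it was -0.076 (-0.19 to 0.68), beside -0.062. The transcript called in the ST was ID1, an inhibitor of bHLH factors (0.50, SE 0.160, limma, adjusted p = 0.0977), and it lost the call under 5 of the alternatives.

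None of the other tested ligands passed the test for stress. The LT and ST values were -0.11 and -0.19 for DLL1, -0.27 and 0.015 for JAG2, and -0.10 and -0.13 for DLK1, a non-canonical ligand. Those of DNER, another non-canonical ligand, were -0.013 (SE 0.458) and 0.68 (SE 0.300, limma, adjusted p = 0.229), the latter the highest among the 19 genes. The receptors NOTCH2 (-0.18 and -0.17) and NOTCH4 (0.20 and 0.38), the protease ADAM10 (-0.054 and -0.19) and RBPJ (-0.14 and -0.19) did not pass it either. For NOTCH4 and RBPJ in the ST, the adjusted p was 0.151 and 0.127.

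Between the muscles, 12 of the 19 were called, 5 higher and 7 lower in the LT, where 51.7% of all transcripts were called, so the count does not set these genes apart. NOTCH4, an endothelial receptor (0.49), DLK1 (0.46), MFNG and POFUT1, which add sugars to the receptor (0.52 and 0.36), and ID1 (0.73) were higher. JAG2 (-0.90), ADAM10 (-0.47), RBPJ (-0.41), PSEN2 of the gamma-secretase (-0.22), the protease FURIN (-0.18), the ubiquitin ligase DTX2 (-0.10) and the deacetylase HDAC1 (-0.12) were lower. The last 3 were above 0 when scaled by the control features (0.0064, 0.087 and 0.070).

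**Figure D5:**
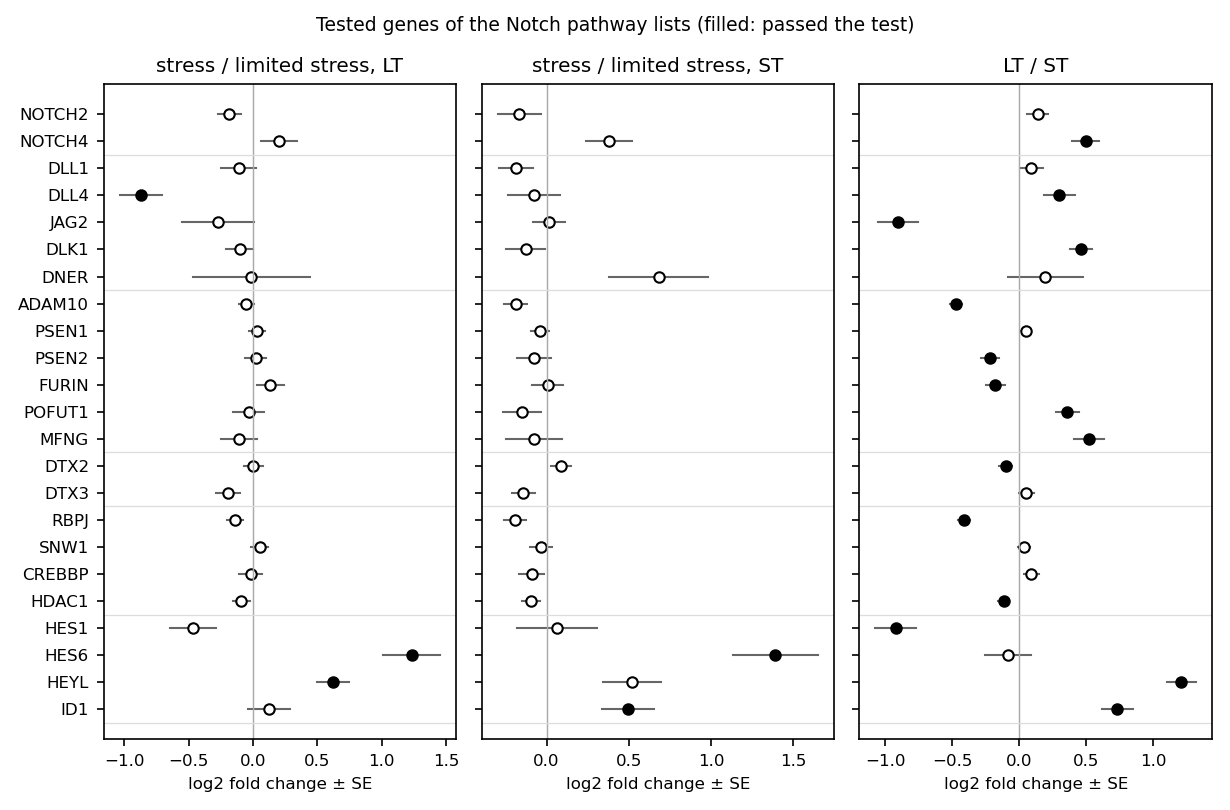
Log2 fold change ± SE of the 23 tested genes of the Notch pathway. Panels show stress in the LT, stress in the ST and LT over ST. The groups from top to bottom are receptors, ligands, receptor processing, turnover, nuclear complex, and target repressors with other readouts such as ID1. Filled points were called. For stress, DLL4, HES6, HEYL and ID1 are the only filled points, and they lie between -0.87 and 1.39.

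Markers of cell types that the samples could hold were set beside these results. None of the 5 tested endothelial markers (of 20 listed) was called for stress in either muscle. Their log2 fold changes lay between -0.11 and 0.15 in the LT. Their summed scaled signal there, with SELE, ranged from 96.3% to 196% in limited stress cows and from 96.8% to 228% in stressed cows. For stress, no tested marker of mural cells (6), satellite cells (3 of 9 listed) or fat cells (5) was called in either muscle. Nor was any of fibroblasts (6), slow fibres (6) or fast fibres (3). Over all tested transcripts, 3.73% were called in the LT and 3.60% in the ST. In the LT, log2 fold changes lay between -0.32 and 0.49 for mural cells and between -0.63 and -0.15 for satellite cells. In the ST they lay between -0.065 and 0.47 for slow fibres and between -0.75 and -0.018 for fat cells. SDC4, on the satellite cell list, is given by the authors as differentially expressed in both muscles. HBB, the only blood marker tested, was not called in the LT. No macrophage marker was on the array. Between the muscles, 3 of 5 endothelial markers (PECAM1, ESAM and CD34), 4 of 6 mural markers and 4 of 6 slow fibre markers were higher in the LT, while MYH7, the slow myosin, was lower (-0.11, adjusted p = 0.00595), all 3 fast fibre markers and 2 of 6 fibroblast markers were lower, and 1 satellite cell marker was higher (MYF5) and 1 lower (CDH15). These counts stand beside the 51.7% of all transcripts called between the muscles. The part of the markers in the stress effects on the 4 genes and in the muscle differences of DLL4, HEYL and HES1 was not tested.

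Of the myogenic factors, which Notch targets are known to restrain, MYOG (-1.0) and MYOD1 (-0.69) were lower in the LT of stressed cows. MYF6 (0.62) was higher there, and MYOG was lower in the ST (-0.85). In the ST, MYOD1 (-0.61, limma, adjusted p = 0.179) and MYF6 (-0.025) did not pass the test. Nor did MYF5 in the LT (-0.63, adjusted p = 0.215) or the ST (-0.47, adjusted p = 0.267). Between the muscles, MYOG (0.74) and MYF5 (0.69) were higher and MEF2A (-0.18) was lower in the LT.

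The transcripts whose scaled log2 signal was most like that of each gene were ranked among 4229 transcripts by the mean of the correlations over the 32 LT and the 32 ST arrays, which hold both stress groups. For DLL4 they were PTGER4, a prostaglandin E2 receptor (mean r = 0.76), the custom probe set Target1036 (0.63) and ESAM, an adhesion molecule of endothelial cells (0.60). For HES1 they were Target1751 (0.54), the probe A_73_105619 (0.54) and JUNB, a subunit of AP-1 (0.49). For HEYL they were TC319569, described as CNN3 (0.74), TC378976, described as LRP4 (0.74), and Target373 (0.72). For HES6 they were Target1296 (0.74), PGF, a growth factor of the VEGF family (0.73), and Target1414 (0.71). The correlations of HES1 were the weakest of the 4 genes.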

How the data were processed

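The authors read the arrays with Feature Extraction 10.1.1.1, and the intensities they deposited are its processed signals, background-subtracted, detrended and with surrogate values near background. They were neither scaled between arrays nor transformed to log2. The deposited spot flags were used as given. Each signal was divided by the 75th percentile of the non-control spots of its array and log2 transformed, because the spots marked as controls in the files lay near background (median 3.24 units). The authors divided by the median of control probes, and whether these were the same spots is not given in the sources used here. Outlier spots were set aside, and a probe was tested in a muscle when its spot was well above background on 11 or more of the 32 arrays. limma 3.58.1 (R 4.3.3) was fitted per muscle with the 4 groups of stress and diet, and to all 64 arrays for the muscles, with two-sided tests and Benjamini-Hochberg adjustment over all probes. Calls of a transcript needed 80% or more of its probes to have an adjusted p under 0.1 in one direction. Fits were tested on simulated data. The slaughter period used by the authors is not in the labels and was not modelled.

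The muscles of a cow were paired by the cow number of the labels. The deviations of an LT array from its group mean correlated with those of the same cow's ST array by 0.10 to 0.76 (median 0.43, 32 of 32 cows over 0.1). The main fits had no cow block, which was an alternative with statmod 1.5.0. The fits with the cow block were joint over the arrays of both muscles and held the probes tested in both. For stress within a muscle they thus differed from the main fits in more than the block. The part of the block alone was not tested there. Other alternatives were the scaling, normexp (offset 50) with quantile normalization, the filter, slide, scan day and leaving out each cow in turn.

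The 4 genes, the gene lists and the tests were chosen with earlier results of these data known. Besides the 4 genes, the text names the 3 transcripts most like each of them and the list genes that were called. NOTCH2, DLL1, DNER, SELE, HBB and the values for stress of NOTCH4, JAG2, DLK1, ADAM10 and RBPJ were added after their values were seen. So were the stress values of MYF5, those of MYOD1 and MYF6 in the ST, and the stress ranges of the cell type markers. SDC4 was named from the authors' list of differentially expressed genes. DLL1, DNER and HES6 were named from the descriptions in the files.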

Additional observations from a re-analysis of the deposited data

Results flagged for a closer look

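Of 32 groups of 8 arrays (each gene in each muscle, stress and diet group), 2 held an array that stood apart by Dixon's criterion, which chance passes in about 1 of 20 groups. Both were DLL4 in the LT on the EP diet. A limited stress cow had a scaled signal of 13.4%, above the next highest of 8.54%. A stressed cow had 1.68%, below the next lowest of 3.92%. Without that stressed cow the stress effect on DLL4 in the LT was -0.77, the smallest in size when each cow was left out in turn, and it was past the threshold in all 32 of these fits (adjusted p 2.97e-04 to 0.00253).

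The stress effects on DLL4 in the 2 muscles differed by -0.79 on the log2 scale in a test of the difference with the cow as a block (limma, adjusted p = 0.0336). Over all 11 alternatives the difference lay between -1.07 and -0.61 and the adjusted p between 0.0336 and 1.0.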

How the results depend on the processing

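The stress effects on DLL4 and HES6 in the LT and on HES6 in the ST kept their direction and their call under all alternatives run, with ranges of -1.05 to -0.63, 0.62 to 1.34 and 0.81 to 1.54. HES6 was not tested in the ST when a probe had to be well above background on all arrays. The control features, whose median was near background, moved the median stress effect of all probes in the LT from -0.048 to -0.23, the median diet effect in the LT to 0.20 and the median muscle difference from -0.019 to 0.17. No fixed term for slide or scan day could be fitted for the muscle difference, alone or with the cow, since no slide held both muscles. The slide as a random block, the cow block with the control features and the omission of single cows were chosen after seeing the data. The cause of the changes below was not tested.

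With the control features, the stress effect was 0.44 for HEYL in the LT (adjusted p = 0.409) and 0.018 for DLL4 in the ST, the diet effect in the LT was 0.047 for DLL4 and 0.15 for HEYL, the stress by diet difference in the LT was -0.20 for DLL4 and -0.12 for HEYL, and HES6 differed between muscles by 0.10 (0.32 in limited stress cows). The muscle by stress difference of HEYL was -0.18. The muscle values of FURIN, DTX2, HDAC1 and MEF2A were 0.0064, 0.087, 0.070 and 0.0049. Adding the cow block to the control features gave the same values. Without scaling, the stress effect in the ST was 0.071 for DLL4 and 0.67 for HEYL (adjusted p = 0.0444), the muscle by stress difference of HEYL was -0.016, and HES6 differed between muscles by 0.042 (0.18 in limited stress cows), DTX2 by 0.027 and HDAC1 by 0.010. Without scaling, the stress effect on the EP diet was 0.039 for HES1 in the LT and 0.15 for DLL4 in the ST (0.13 with the control features), and that on the control diet was 0.055 for HES1 in the ST (0.038 with slide and 0.097 with scan day). With normexp, the stress by diet difference of DLL4 in the ST was -0.012 and HES6 differed between muscles in limited stress cows by 0.059. With slide and with scan day, the muscle by stress difference of HES6 was 0.020 and 0.025. With the slide as a random block, DLL4 differed between muscles by 0.30 (adjusted p = 0.119).

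For stress within a muscle, the fits with the cow block also changed the arrays and probes fitted, since they were joint over both muscles. In these fits HEYL passed the test in the ST (0.52, adjusted p = 0.0306, and 0.61 with slide, adjusted p = 0.0395). With the cow block alone, the muscle by stress difference of DLL4 (-0.79) passed it too. No other call of the 4 genes over both diets changed. Within the diets, the joint fit with the cow block put DLL4 in the LT on the EP diet under the threshold (adjusted p = 0.0521). It put HES1 in the LT on the control diet above the threshold (adjusted p = 0.145). The transcripts called for stress in the LT were 161, and 35 with the control features, 242 with the cow and 288 with the cow and slide. In the ST they were 153, and 38 with the control features, 87 without scaling, 100 with normexp, 52 with slide, 71 with scan day and 89 with the cow and slide. Leaving out each cow in turn gave -0.54 to -0.41 for HES1 in the LT, -0.019 to 0.17 for HES1 in the ST (below 0 without any 1 of 3 cows) and 0.46 to 0.61 for HEYL in the ST, which was past the threshold without any 1 of 7 cows. The stress effect on HES6, whose spot was not well above background on 1 array, was 0.62 in the LT and 0.81 in the ST with normexp.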
